A study of Talpa occidentalis with 24 samples.

Results

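Ovary-only active enhancers of the fetal mouse gonad are stretches of chromatin that the authors called active enhancer in the ovary and neither active enhancer nor promoter in the testis. They were taken from the deposited chromatin state segmentations of mouse ovary and testis, which assign 1 of 7 named states to every stretch of 200 bp bins. Positions are given on mm9, the build named in the submitters' processing notes. A member had to be in the active enhancer state of the ovary over 400 bp or more on chr1 to chr19. Promoter and bivalent promoter segments of both tissues had to be more than 2 kb away, and no base could be promoter or active enhancer in the testis. This gave 65056 members. They came from 243871 active enhancer segments of the ovary, of which 197415 reached 400 bp and 145452 also lay far enough from promoter states. The members were therefore 44.7% of the distal active enhancers of the ovary (Wilson 95% interval 44.5 to 45.0, which covers counting only). This share depends on the limits of the rule, and it describes the selected set without a test.

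The series profiles histone marks in gonads of the Iberian mole at postnatal day 7 and of the mouse at embryonic day 13.5, to find regulatory elements that the species share and do not share. The 24 labelled libraries are all from wild-type moles and cover 4 marks (H3K4me3, H3K4me1, H3K27ac and H3K27me3) in the testis and in the ovarian and testicular parts of the ovotestis. The groups used here are mouse ovary and mouse testis. Their tissue comes from the header of each file and their stage from the protocol text, which speaks of fixed whole gonads. For the mouse samples, the strain, genotype, number of embryos, number of libraries and read depth were not given in the sources used here. Each mouse gonad has 1 segmentation, which leaves every difference without a replicate check, and no test was run.

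Enhancers are stretches of DNA, often far from genes, that raise transcription of a gene when transcription factors bind them. Nucleosomes at enhancers carry H3K4me1, and H3K27ac marks those in use, whereas H3K27me3 is deposited by Polycomb complexes over silenced developmental genes. Mouse gonads of both sexes arise from a common primordium. By the stage profiled here the testis has formed cords of Sertoli cells and has steroid-producing Leydig cells, while in the ovary the supporting cells are granulosa cell precursors and the germ cells turn to meiosis. A segmentation of a whole gonad mixes these cell types, and fewer cells of a type cannot be told apart from a weaker mark per cell.

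The tissue names were set against the sex chromosomes. Outside the gap state, the ovary had 1.17% of the Y chromosome and the testis 7.17%, and promoter segments on Y numbered 0 in the ovary and 29 in the testis. The Polycomb repression state covered 50.8% of the X chromosome in the ovary and 31.4% in the testis. Both measures differed between the files in the direction of the sexes that the names give. Markers of cell types could not be examined, because no mouse gene annotation of this build was used.

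The testis chromatin under the ovary-only enhancers was mostly in the poised or the undefined state and less often in the Polycomb state than the rest of the genome. Of their bases, 49.0% were poised enhancer in the testis, 37.9% undefined, 13.1% Polycomb repression and 0.0132% gap. These are the 4 states the rule allows. Among all autosomal testis bases in the same states, 20% were poised, 39.8% undefined, 28.8% Polycomb and 11.4% gap. The poised share was thus higher under the members and the Polycomb share lower than over the genome. The undefined share was slightly lower under the members. Leaving the gap state out would raise the other shares of the background, so the undefined share of the members would then lie further below it. The background was also not limited by distance to promoter states.

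The reciprocal set, testis-only enhancers chosen by the same rule with the gonads exchanged, showed much the same composition. It held 56931 members, 37.4% of the 152139 distal active enhancers of the testis. Their bases were 45.9% poised, 38.9% undefined and 15.2% Polycomb in the ovary. The mirror set therefore had a slightly lower poised share and a slightly higher Polycomb share. The gonads differed in their totals: the active enhancer state covered 12.8% of autosomal bases in the ovary and 10.3% in the testis, while the ovary had fewer distal active enhancers, 145452 against 152139. The part of these totals in the counts of the sets was not tested.

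**Figure D1:**
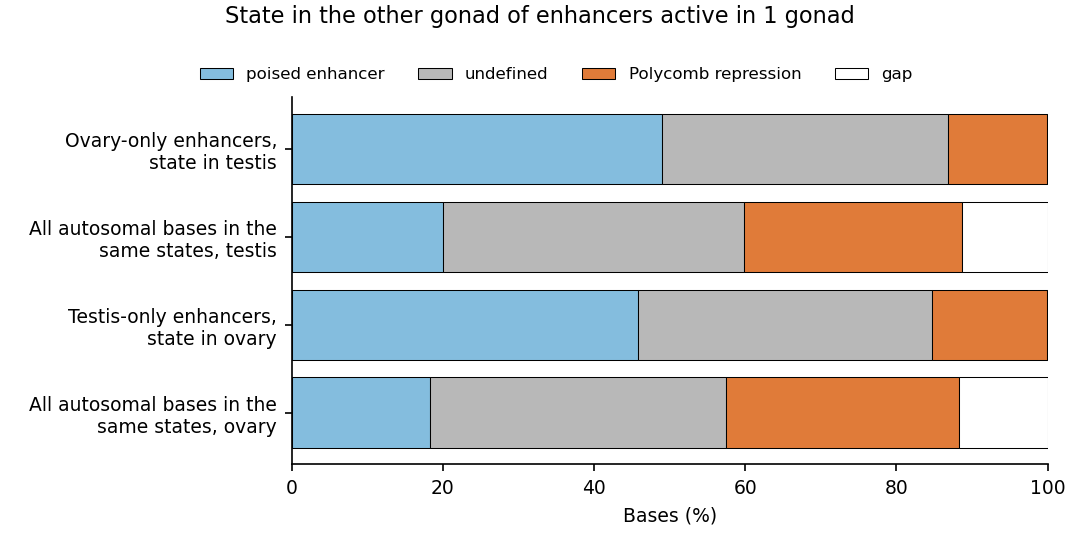
Share of bases (%) in each chromatin state in the other gonad, for ovary-only enhancers, for testis-only enhancers and for all autosomal bases in the same 4 states. Poised enhancer takes 49.0% of the ovary-only bases in the testis, against 20% of all testis bases in these states, while Polycomb repression takes 13.1% against 28.8%.

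By the state that covered more than 50% of each member in the testis, the members fell into 4 main classes. The class mostly poised in the testis held 31036 members (47.7%), the class mostly undefined 19029 (29.2%) and the class mostly Polycomb 3879 (5.96%). A further 11108 (17.1%) had no state over 50%, and 4 were mostly gap. Of the poised class, 75.1% were poised over their whole length, against 48.9% whole-length undefined in the undefined class and 44.5% whole-length Polycomb in the Polycomb class. A member of 400 bp, the length of 32.7% of members, has a pair of bins, so a state over 50% covers all of it. The classes differ in length, and the part of this in these shares was not tested.

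The classes lay at different distances from testis activity. The median gap to the nearest testis promoter or active enhancer segment was 1200 bp for the poised class, 2800 bp for the undefined class and 4000 bp for the Polycomb class. Testis activity lay within 1 kb of 47.5% of poised members, 25.6% of undefined members and 18.8% of Polycomb members. It lay more than 10 kb away from 11.96%, 15.1% and 25.8% in the same order. Poised members were thus the nearest to segments called promoter or active enhancer in the testis, and Polycomb members the most remote. Testis-only enhancers showed the same order, with median gaps to ovary activity of 1200, 1800 and 3600 bp. Of these, 49.7%, 37.9% and 22.2% had ovary activity within 1 kb. Distances of all bins by state were not computed, so the order cannot be called particular to ovary-only enhancers.

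Members of the undefined class were the longest and the closest to ovary promoters. Their median length was 800 bp and 39.3% reached 1000 bp, compared with 600 bp and 28.1% in the poised class and 600 bp and 19.8% in the Polycomb class. Their median distance to an ovary promoter segment was 25800 bp, against 35800 bp in the poised class and 41400 bp in the Polycomb class. The Polycomb state of these files consists of many short pieces, 1229515 autosomal segments in the testis with a median of 400 bp, covering 25.5% of the autosomes. A short member can therefore fall into that class through a pair of bins.

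Ovary-only enhancers were short. Their median length was 600 bp (quartiles 400 and 1000 bp), the 99th percentile was 3000 bp and the longest was 8000 bp. Ovary enhancers shared with the testis had a median of 1200 bp (quartiles 800 and 2200 bp) and reached 67000 bp, so that the shared set held the long active stretches. Testis-only enhancers had the same median of 600 bp, with quartiles of 400 and 800 bp and a longest segment of 6200 bp. Segments of exactly 400 bp made up 32.7% of ovary-only enhancers, 11.6% of shared ovary enhancers and 38.0% of testis-only enhancers. In total the members covered 54.4 Mb, 2.20% of the autosomes.

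The share of ovary-only enhancers was lower in each longer length class. It was 69.6% at 400 bp, 57.8% at 600 to 800 bp, 37.0% at 1000 to 1800 bp, 17.9% at 2000 to 2800 bp, 7.66% at 3000 to 4800 bp and 1.42% from 5000 bp. A longer segment has more bases that could be shared, so this order is partly built into the rule. The share of single bases does not depend on length in that way. Among ovary bases in 400 bp segments, 24.5% had active enhancer state in the testis, against 62.6% in segments from 5000 bp. The same order held for testis segments, with 36.7% and 81.1% of bases active in the ovary at the same lengths.

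**Figure D2:**
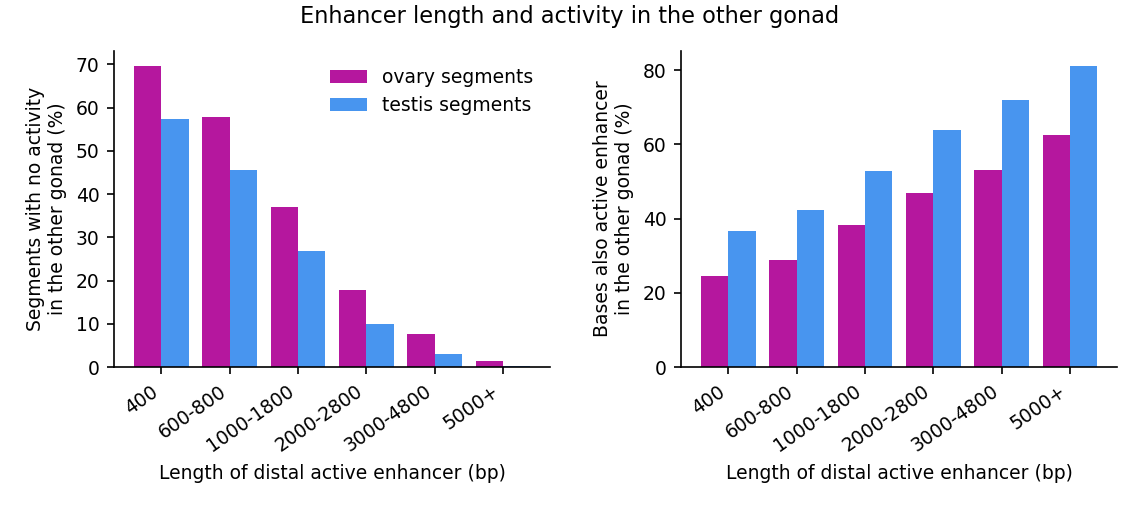
Left, percent of distal active enhancer segments with no promoter or active enhancer base in the other gonad, by segment length in bp. Right, percent of their bases that are active enhancer in the other gonad; ovary segments are the left bar of each pair and testis segments the right bar. The ovary-only share is 69.6% at 400 bp and 1.42% from 5000 bp, and the ovary bar is above the testis bar in every length class on the left and below it on the right.

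The longest ovary-only enhancer, of 8000 bp, lay at chr5:9112201-9120200. In the testis it was 50% undefined, 27.5% poised and 22.5% Polycomb, and the nearest testis activity was 4400 bp away. Segments of 7600 bp lay at chr2:38759801-38767400 and chr2:142714601-142722200, and one of 7400 bp at chr6:88240001-88247400. The segment at chr2:142714601-142722200 was 52.6% poised in the testis, while the other two were 63.2% and 73.0% undefined. These were followed by chr4:120214201-120221400 and chr10:41175201-41182400, both of 7200 bp, and by chr4:147420601-147427600, chr16:20187801-20194800 and chr18:30474801-30481800, of 7000 bp each. The next length, 6800 bp, was shared by chr2:157136001-157142800, undefined over 100% of its length in the testis, and chr19:27909401-27916200. Of these 11 segments, 8 were undefined over more than 50% of their length in the testis.

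The longest members under Polycomb in the testis were shorter than the longest of all members, which measured 8000 bp. The 5 named below were still at or above the 99th percentile of all members, 3000 bp. At least 50% of the bases were in the Polycomb state in 8426 members (13.0%), a count that includes ties of 50%, and 1725 were Polycomb throughout. The longest of the 8426, at chr1:104103001-104107400, measured 4400 bp, was 54.5% Polycomb and 45.5% undefined in the testis, and lay 34800 bp from an ovary promoter segment. It was followed by chr10:12363401-12367000 with 3600 bp and by chr8:49340401-49343600 and chr9:67289601-67292800 with 3200 bp each. All of these were ties, with exactly 50% Polycomb, and so lie outside the class mostly Polycomb. Next came chr13:21476801-21479800 with 3000 bp. The last had the largest Polycomb share of the 5, with 73.3%, and 26.7% undefined.

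At the members the rule fixes a difference between the gonads, while of their surroundings it sets only the distance to promoter states. A member ends where the active state of the ovary ends, however. The 200 bp next to each edge can therefore never be active enhancer in the ovary, while the testis has no such limit. The ovary flank values, and their difference from the testis, are thus partly fixed by how members are cut. Within 1 kb on either side, the flanks in the ovary were 45.7% poised, 32.6% undefined, 11.4% active enhancer and 9.70% Polycomb. The same flanks in the testis were 34.1% poised, 40.2% undefined, 9.02% active enhancer and 16.1% Polycomb. At 10 kb from the centres, active enhancer was the state of 21.0% of positions in the ovary and 15.01% in the testis. Poised enhancer was the state of 20.2% in the ovary and 24.2% in the testis there, so that the higher poised share of the ovary within 1 kb was reversed. In flanks of 5 kb the poised share was 26.8% in the ovary and 27.4% in the testis. Over all autosomal bases the poised state covered 15.6% in the ovary and 17.7% in the testis. Polycomb was the state of 18.7% in the ovary and 19.5% in the testis at 10 kb. In the testis the poised state was centred on the members, with 52.6% at the centre and 24.2% at 10 kb. The rule bars active enhancer in the testis at the centre but not at 10 kb, so this contrast is partly built in. Testis-only enhancers had much the same pattern in the ovary, with 48.3% poised at the centre and 21.7% at 10 kb. Their flanks of 1 kb were 54.4% poised and 9.03% Polycomb in the testis, and 32.8% poised and 19.0% Polycomb in the ovary.

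Shared ovary enhancers had more active surroundings than the members. Their flanks of 1 kb in the ovary were 18.9% active enhancer and 6.90% Polycomb, and in the testis 37.1% active enhancer and 6.44% Polycomb. The testis flank value follows in part from the rule, since a testis segment that overlaps a shared enhancer can run on into its flank. The sets themselves are split by testis activity, so the contrast in the ovary flanks is a description as well.

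**Figure D3:**
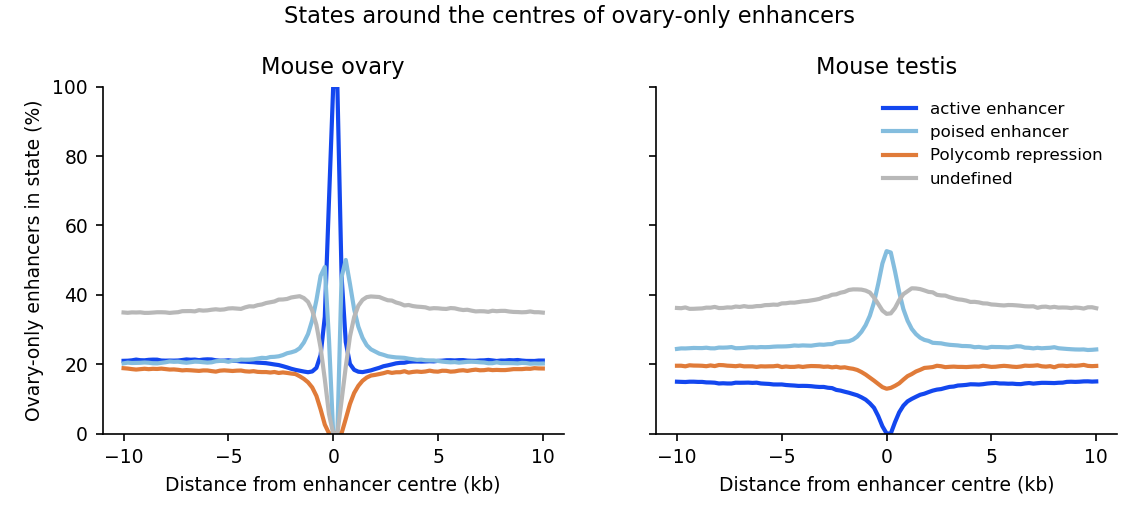
Percent of ovary-only enhancers in each state at each 200 bp step from the enhancer centre, out to 10 kb on either side, in the ovary (left) and the testis (right). In the testis the poised line stands at 52.6% at the centre and 24.2% at 10 kb, and the Polycomb line dips at the centre. The rule bars active enhancer in the testis at the centre but not at 10 kb.

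Members lay closer to testis activity than eligible positions at large, although they shared no base with it. The median gap was 2000 bp (quartiles 600 and 5800 bp), and 6848 members (10.5%) touched a testis promoter or active enhancer segment directly. Testis activity lay within 1 kb of 36.4% of members and within 10 kb of 85.3%. Over all 9130103 autosomal bins that were outside testis activity and the testis gap state and met the same promoter distance, the median gap was 6600 bp, with 17.2% within 1 kb and 59.5% within 10 kb. These bins are single positions, not segments, and the part of segment length in the difference was not tested. For testis-only enhancers the median gap to ovary activity was 1800 bp, with 12.7% touching. At the other end, 9556 members (14.7%) lay more than 10 kb and 1176 (1.81%) more than 50 kb from testis activity. The most remote pair lay at chr4:112442201-112442600 and chr4:112442801-112443400, with gaps of 871000 and 871600 bp, in a region also without an ovary promoter segment for 889200 bp. Of the 400 bp segment, 50% was poised and 50% Polycomb in the testis, and the 600 bp segment was 33.3% poised and 66.7% Polycomb.

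Near the limits of the rule, 21257 members had the minimum of 400 bp, and 29424 segments of 200 bp met every other condition. A gap of 2200 bp to the nearest promoter state was found in 524 members, and 505 segments had a gap of 2000 bp and were left out. A further 13309 distal enhancers shared exactly 200 bp with testis activity and were left out.

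Ovary-only enhancers were spread over all autosomes at similar densities. Per Mb of chromosome there were between 22.6 members on chromosome 14 and 31.2 on chromosome 11, with a median of 26.6. These densities count bases in the gap state. Per Mb outside that state the range was narrower, from 26.3 on chromosome 15 to 33.3 on chromosome 11, with a median of 29.5. Chromosome 14 then had 26.6. As a share of the distal ovary enhancers of a chromosome, they ranged from 41.7% on chromosome 19 to 47.7% on chromosome 16. Chromosome 11 had the most active enhancer state in both gonads, with 18.6% of its bases in the ovary and 14.1% in the testis. Ovary-only enhancers outnumbered testis-only enhancers on 18 of 19 chromosomes, the exception being chromosome 19 with 1587 and 1652. On the other chromosomes the ratio lay between 1.02 on chromosome 18 and 1.31 on chromosome 11.

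Along the chromosomes the members were less clustered than shared enhancers. Another member lay within 10 kb of 62.4% of ovary-only enhancers, another shared enhancer within 10 kb of 78.5% of shared ovary enhancers, and another testis-only enhancer within 10 kb of 58.4% of testis-only enhancers. The shared set is larger and its segments are longer, and the part of this in the difference was not tested. Joined over gaps of up to 10 kb, the members formed 38724 groups, of which 24491 held a single member. Groups of 5 or more numbered 1396 and held 8716 members (13.4%), and 86 groups held 10 or more. Among the 2482 windows of 1 Mb, the median held 25 members, 109 held 0 and 66 held at least 60.

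The 5 windows of 1 Mb with the most members all had more active enhancer state than the autosomes as a whole, in the ovary and in the testis. They were chosen for their counts of ovary active segments, so the higher ovary share follows from the choice. In the testis the active share ran from 10.7% to 30.9%, against 10.3% of the autosomes. The highest count was 83, at chr1:138000001-139000000, where members were 45.1% of 184 distal ovary enhancers, beside 24 testis-only enhancers. The active enhancer state covered 34.3% of this window in the ovary and 22.2% in the testis. The window chr8:49000001-50000000 held 77 ovary-only and 52 testis-only enhancers. The windows chr5:122000001-123000000 and chr6:144000001-145000000 held 76 members each, with 25 and 41 testis-only enhancers. The window chr2:49000001-50000000 held 75 members, which were 55.1% of its distal ovary enhancers, and 25 testis-only enhancers. There the active state covered 22.8% in the ovary and 10.7% in the testis; the Polycomb state covered 13.6% in the ovary and 19.6% in the testis.

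The group with the most members lay at chr6:88168401-88257800. It held 22 ovary-only enhancers of 400 to 7400 bp over 89.4 kb, with 1 shared distal enhancer between them, and includes the 7400 bp segment named above. Over this stretch the active enhancer state covered 53.2% in the ovary and 5.15% in the testis. The Polycomb state covered 1.79% in the ovary and 25.5% in the testis, and the undefined state 21.5% in the ovary and 47.9% in the testis. The ovary had promoter state over 0.447% and bivalent promoter state over 0.895% of the group, where the testis had 0 of either. Just outside it, an ovary promoter segment at chr6:88160001-88160800 was in the Polycomb state over more than 50% of its length in the testis, and all 14 distal ovary enhancers within 50 kb of it were ovary-only.

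The next groups differed in which states took larger shares in the testis. At chr5:122388801-122446200, with 19 members over 57.4 kb, active enhancer covered 39.7% in the ovary and 5.92% in the testis, Polycomb 4.88% in the ovary and 19.5% in the testis, and undefined 7.32% in the ovary and 22.0% in the testis. Poised enhancer covered similar shares of that group, 48.1% in the ovary and 51.9% in the testis. At chr3:130854601-130911600, with 18 members over 57.0 kb, active enhancer covered 61.1% in the ovary and 5.26% in the testis, and poised enhancer 24.2% in the ovary and 55.8% in the testis. At chr10:118896801-118945400, with 16 members, active enhancer covered 35.4% in the ovary and 0.412% in the testis, the lowest testis share of the 5 groups, and undefined 18.1% in the ovary and 37.0% in the testis. At chr7:142830201-142898600, with 15 members, active enhancer covered 38.0% in the ovary and 7.89% in the testis. Of these groups, the one on chromosome 6 alone was more Polycomb than poised in the testis.

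**Figure D4:**
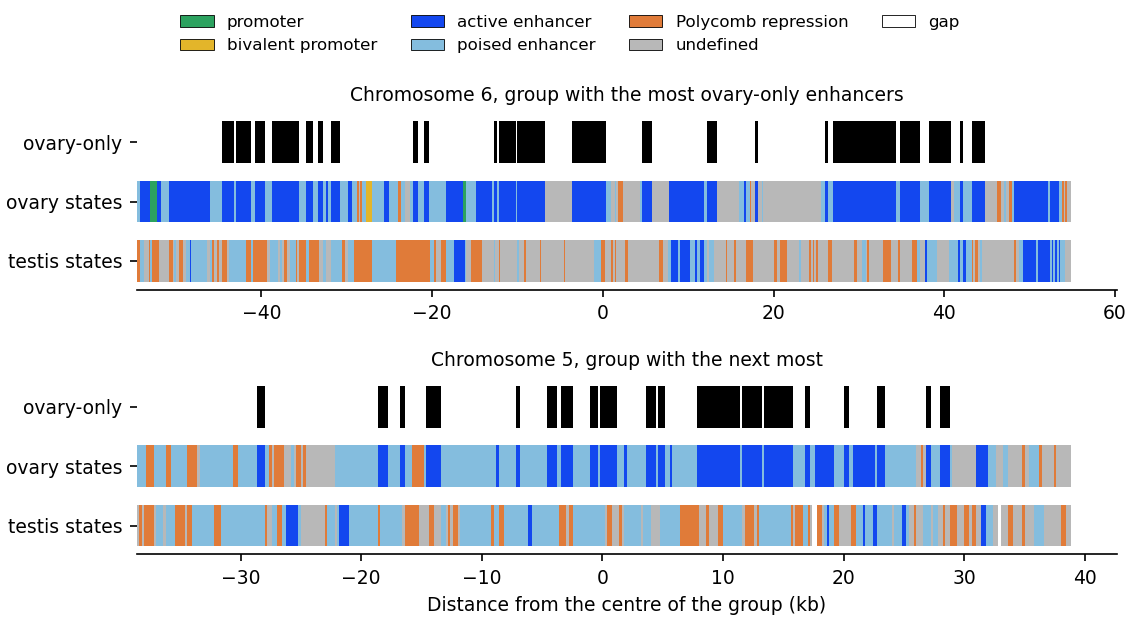
Chromatin states in the ovary and the testis over the largest groups of ovary-only enhancers, on chromosome 6 (22 members, 89.4 kb) and chromosome 5 (19 members, 57.4 kb), by distance in kb from the centre of each group. Black bars are ovary-only enhancers. The chromosome 6 group is largely undefined and Polycomb in the testis, and the chromosome 5 group largely poised.

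Groups were chosen for their members, so a higher active share in the ovary follows from the choice. Because the shares of all states add up to the whole, the shares of the other states in each gonad are partly fixed by it too. Over the 1396 groups of 5 or more, the median active enhancer share was 36.1% in the ovary and 8.42% in the testis. The median poised share was 26.7% in the ovary and 35.7% in the testis, and the median Polycomb share 6.72% in the ovary and 14.3% in the testis. In 153 of these groups (10.96%) the testis had no active enhancer base at all. The largest testis active share was 47.0%, so that some groups lay among stretches called active enhancer in the testis as well.

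Members lay farther from promoters than shared enhancers did. The median distance to an ovary promoter segment of any length was 32400 bp (quartiles 12800 and 86400 bp) for ovary-only enhancers and 23600 bp (quartiles 10000 and 56800 bp) for shared ovary enhancers. It was 40600 bp from testis-only enhancers to a testis promoter segment. Of the ovary-only enhancers, 20.02% lay within 10 kb and 22.0% more than 100 kb away, against 25.3% and 13.8% of the shared set.

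The nearest promoter segment had no base in promoter state in the testis only slightly more often for members than for shared enhancers. Such a segment can still be active enhancer or bivalent promoter there, so the measure does not show absence of activity. Of ovary promoters of at least 400 bp, 2024 were active enhancer and 1005 bivalent promoter in the testis. Another 1109 were poised, 496 undefined and 278 Polycomb, and 1167 had no state over 50%. With ovary promoter segments of any length, the nearest shared no promoter base with the testis for 56.2% of ovary-only enhancers (Wilson interval 55.8 to 56.6) and 54.4% of shared ones (54.0 to 54.7). With promoter segments of at least 400 bp the shares were 38.9% and 36.0%. The gap between the settings comes with the promoter segments of 200 bp, of which 87.2% had no promoter base in the testis, against 31.8% of longer ones. In each of 4 distance classes the share was higher for members: it was 35.6% and 32.9% up to 10 kb, 36.8% and 35.2% at 10 to 50 kb, 41.1% and 37.9% at 50 to 200 kb, and 42.4% and 39.6% beyond. For the testis the contrast was wider, with 41.8% for testis-only and 33.2% for shared testis enhancers. Enhancers near the same promoter are not independent, and the intervals leave this out.

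Around ovary promoters, the share of ovary-only enhancers varied with the state of the promoter in the testis. Of the distal ovary enhancers within 50 kb of an ovary promoter of at least 400 bp, 40.1% were ovary-only over all 19106 promoters. Around the 13027 promoters that kept promoter state in the testis the share was 39.5%. It was 51.7% around the 278 promoters in the Polycomb state there, 44.3% around the 1109 that were poised, 43.9% around the 1005 that were bivalent and 41.9% around the 496 that were undefined. The lowest share, 36.5%, lay around the 2024 that were active enhancer in the testis. An enhancer near several promoters counts once for each.

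The mirror comparison spanned a wider range. Among distal testis enhancers within 50 kb of testis promoters, 50.2% were testis-only around the 185 promoters in the Polycomb state in the ovary, 47.8% around the 88 that were bivalent there and 24.98% around the 12584 that kept promoter state. In numbers per promoter the differences were smaller around ovary promoters than around testis promoters. The mean was 3.78 ovary-only enhancers around ovary promoters kept in the testis, 4.01 around those in the Polycomb state and 4.01 around bivalent ones. It was 4.10 around undefined ones and highest, at 4.23, around poised ones. For testis-only enhancers around testis promoters the mean was 2.56 around those kept in the ovary, 3.62 around those in the Polycomb state and 3.84 around bivalent ones. There it was 2.95 around undefined ones and again highest, at 4.30, around poised ones. Ovary promoters in the Polycomb state in the testis also had fewer distal enhancers in all, with a median of 7 against 9 around kept promoters.

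**Figure D5:**
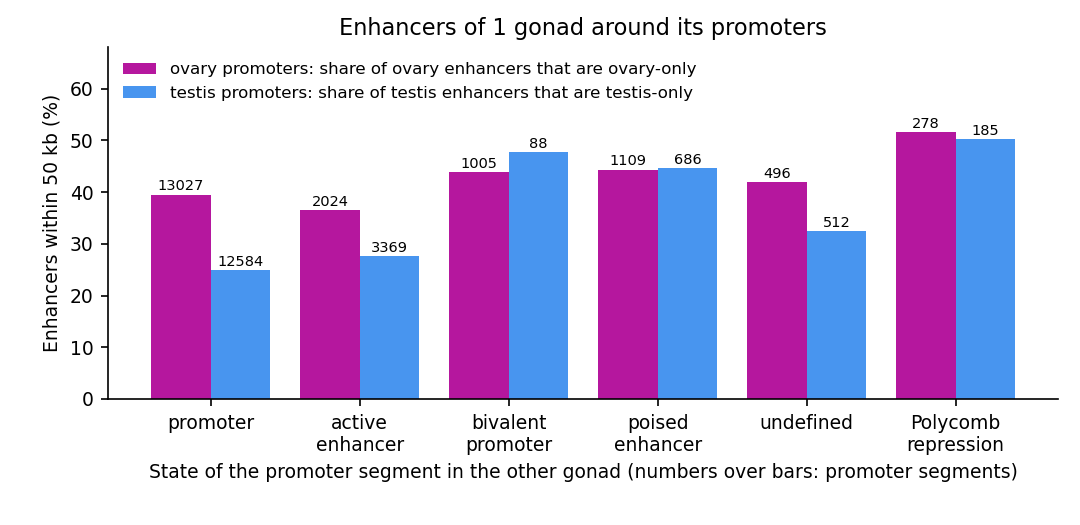
Percent of the distal active enhancers within 50 kb of a promoter segment that are active in 1 gonad only, by the state of that promoter in the other gonad. For ovary promoters (left bar of each pair) the share is 51.7% where the testis has Polycomb repression and 39.5% where it has promoter state; for testis promoters (right bars) it is 50.2% and 24.98%. The 1167 ovary promoters and 720 testis promoters with no state over 50% are not drawn.

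Among ovary promoters with no promoter base in the testis, the one with the most members within 50 kb was a 400 bp segment at chr16:90885801-90886200, with 19 of 23 distal ovary enhancers ovary-only, which was active enhancer in the testis. Segments at chr4:24757401-24757800 and chr6:88196601-88197000 had 18 of 22 and 18 of 19, and the second lies inside the group on chromosome 6 described above. Of the promoters that were bivalent in the testis, the highest count was 17 of 26, at chr5:115157801-115158400. It was followed by 15 of 23 at chr17:28279601-28280400 and 15 of 24 at chr4:82969201-82969800. Of those in the Polycomb state in the testis, chr11:61497201-61498800 had 15 of 25 and chr3:86723201-86724200 had 15 of 20. The segment at chr3:130919201-130919600, next to the group on chromosome 3 described above, had 14 of 28. These promoters were picked after the values were seen, for having the highest counts.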

How the data were processed

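Per the file headers, the authors made the mouse segmentations of ovary and testis with EpiCSeg. STAR 2.6.1d and mm9 are named, without a role, per the submitters' processing notes, and the mouse files themselves name no build. The deposited values are state names and no unit of signal. How the states relate to marks, pooling, thresholds and depth were not given in the sources used here. None of the 24 labelled samples is a mouse sample, and mole files were not used.

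Each segmentation was read as 200 bp bins without gaps or overlaps. Distances are bases between segment edges. Coordinates count from 1. Intervals, where a share carries one, are Wilson 95% intervals (statsmodels 0.14.6, Python 3.11.15). The other shares have none, among them those around promoters by their state in the other gonad. The rule was checked on simulated segmentations with planted members. Regions named are the longest members, the fullest windows of 1 Mb, the largest groups within 10 kb and the longest members at least 50% Polycomb in the testis. Promoters and remote members were chosen after their values were seen. The members and lists were chosen with earlier results of these data known. Planned gene lists, nearest genes, motifs and sequences were not computed, since no mm9 annotation or genome was used. Alternatives are given in the closing section.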

Additional observations from a re-analysis of the deposited data

How the results depend on the processing

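Without a minimum length, the share of ovary-only enhancers among distal ovary enhancers was 51.6%, their bases were 49.8% poised in the testis and testis-only enhancers numbered 88127. With at least 1000 bp there were 19883 ovary-only and 13645 testis-only enhancers, the share was 27.03%, the poised part 45.0%, the median density 7.97 per Mb and the part with another member within 10 kb 35.9%. Excluding testis activity within 1 kb gave a share of 30.0%, a poised part of 42.4% and 35465 testis-only enhancers. Excluding it within 1 bin, an alternative chosen after seeing the data, gave 40.02% and 46.2%. A promoter distance of 1 kb gave a share of 44.3% and a poised part of 49.2%, and 5 kb a share of 45.9%. Merging segments within 400 bp gave a poised part of 47.9%. Windows of 500 kb held at most 51 members, 83.5% of members had another within 25 kb, and promoters of at least 400 bp gave 38.9% with an unshared nearest promoter. Flanks of 5 kb were 26.8% poised in the ovary and 27.4% in the testis, so that the higher poised share of the ovary at 1 kb was not found at 5 kb. Ovary-only enhancers outnumbered testis-only ones under each of these settings of the rule, by 1.07 to 1.46 times. Of 48 values under alternatives, 25 stayed within limits and 23 moved. The limits were 1.5 times for counts, the Wilson interval for shares and the side of 1 for the ratio. The Wilson intervals are narrow, so that a share of 44.3% against 44.7% counted as moved. Window and neighbour values also follow the window and distance chosen, so the tally does not measure stability. No paired analysis was possible because each mouse gonad has 1 segmentation and no replicate column, and no replicate could be left out. Other definitions of the nearest gene and of the sequence window were not run. The depth is unknown, and its part in these values was not tested.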

Other observations

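The X chromosome lies outside the rule, and the same conditions there gave 538 ovary-only enhancers among 862 distal ovary enhancers (62.4%, Wilson interval 59.1 to 65.6) and 1199 testis-only among 1563 distal testis enhancers (76.7%, 74.6 to 78.7). The ovary-only density was 3.23 per Mb, below the lowest autosome at 22.6 per Mb, and testis-only enhancers were the more numerous, unlike on 18 of 19 autosomes. The active enhancer state covered 0.886% of X in the ovary and 1.47% in the testis, against 12.8% and 10.3% of the autosomes. How the authors scaled the X chromosome between the sexes is not given in the sources used here, and its part in these values was not tested.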
